A study of Mus musculus with 40 samples.

Results

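The 7 genes described here make, move, break down and sense the inhibitory transmitter GABA: Gad1, Gad2, Slc32a1, Slc6a11, Abat, Gabbr1 and Gabbr2. They were taken by symbol from an expression table of 23322 gene names, and all 7 were among the 15196 genes that reached at least 1 TPM in at least 5 of 40 libraries. Each library came from the nucleus accumbens of 1 C57BL/6J mouse, from left and right punches. There were 8 groups of 5 mice, a saline and a cocaine group for each of 4 kinds of mice: males, females (both intact), and ovariectomized females with either placebo or estradiol. Placebo-carrying ovariectomized mice were the operated controls for estradiol. All mice were handled for 3 days first. The daily cocaine dose was 10 mg/kg on the first and the last of 7 treatment days and 20 mg/kg on the days in between, and tissue was collected after a withdrawal of unstated length. Estradiol dose and route, mouse age and time since surgery are not given in the sources used here. The number codes of intact and ovariectomized mice come from separate ranges. Whether these were separate cohorts is not given in the sources used here. If they were, an effect of surgery and one of cohort cannot be told apart. The labels number each mouse separately, and all libraries were barcoded and sequenced together per the labels' protocol.

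GABA is made from glutamate by glutamate decarboxylase, which has 2 forms. GAD67, the product of Gad1, supplies most of the basal GABA of a neuron, and GAD65, the product of Gad2, is concentrated at nerve terminals. The vesicular transporter encoded by Slc32a1 loads GABA into synaptic vesicles. After release, GABA is cleared by plasma membrane transporters, among them GAT-3, which mouse Slc6a11 encodes and which is largely astrocytic, and GABA transaminase, encoded by Abat, breaks it down in mitochondria. Gabbr1 and Gabbr2 encode the subunits of the metabotropic GABA-B receptor: GABA binds the first, and the second couples the pair to G proteins. The nucleus accumbens consists mainly of GABA-releasing spiny projection neurons with a smaller number of GABA interneurons, so transcripts of the synthesis genes are a general feature of this tissue.

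The values were taken as TPM (transcripts per 1000000), since each library sums to 1000000 in a table named for FPKM. Whether they were adjusted for length is not given in the sources used here. Levels of different genes are compared with that limit and those of an amplicon kit. A gene's level falls when other genes take a larger share. Differences between groups are given as log2 of TPM + 0.5 with their standard errors from limma, fitted on all 15196 genes and all 40 libraries, and a gene is called at an adjusted p under 0.05. As a check of the tissue label, the 14 markers of spiny projection neurons summed to 2518 to 8373 TPM, and none of them was at 0 in every library. Markers of cortical excitatory neurons ranged from 12.9 to 938 TPM. Transcripts of 84 ribosomal protein genes took 7.66% to 31.7% of a library, with a median of 9.80%. The share was 31.7% and 23.2% in estradiol cocaine 126 and 134, 25.2% in male cocaine 67 and 19.6% in placebo saline 137, which were also the 4 libraries least correlated with the others. The library labelled male cocaine 69 had 237 TPM of Xist and 0.318 TPM of the Y-linked Ddx3y, against 0.138 to 8.02 TPM and 13.5 to 53.4 TPM in the 9 other male libraries. The 30 female libraries had 40.4 to 308 TPM of Xist and 0 to 3.46 TPM of Ddx3y. The values of library 69 thus went against the male label, and its column in the table carries the code of saline males although its title says cocaine. Male cocaine values below include it under its title unless stated.

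Promoter sequences are shown for 4 of the genes. Gad1 and Gad2 were chosen for the highest Pearson r of all pairs of members, and Gabbr2 for the largest called difference. Slc6a11 was chosen because the study varied estradiol. It was the only one of the 6 members searched that held AGGTCA, a single arm of the estrogen response element. Each sequence is the 250 bases directly before the RefSeq transcript start in build GRCm38.p6, in the direction of transcription, with motif matches in capitals. The search covered the estrogen response element (GGTCA and, after any 3 bases, TGACC), its single arm AGGTCA, the cAMP response element TGACGTCA, the TATA box TATAAA, the GC box GGGCGG, the E-box CACGTG and the AP-1 site TGAGTCA on both strands.
Gad1: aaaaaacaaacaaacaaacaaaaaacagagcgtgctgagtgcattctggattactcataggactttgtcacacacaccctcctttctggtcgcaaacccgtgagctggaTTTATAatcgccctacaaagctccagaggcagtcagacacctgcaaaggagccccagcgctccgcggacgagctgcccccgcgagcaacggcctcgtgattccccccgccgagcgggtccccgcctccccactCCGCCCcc
Gad2: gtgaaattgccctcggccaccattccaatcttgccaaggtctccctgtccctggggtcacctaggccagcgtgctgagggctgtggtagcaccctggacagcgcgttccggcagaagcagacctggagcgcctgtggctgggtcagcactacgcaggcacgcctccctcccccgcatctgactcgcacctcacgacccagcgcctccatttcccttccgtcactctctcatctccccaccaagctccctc
Slc6a11: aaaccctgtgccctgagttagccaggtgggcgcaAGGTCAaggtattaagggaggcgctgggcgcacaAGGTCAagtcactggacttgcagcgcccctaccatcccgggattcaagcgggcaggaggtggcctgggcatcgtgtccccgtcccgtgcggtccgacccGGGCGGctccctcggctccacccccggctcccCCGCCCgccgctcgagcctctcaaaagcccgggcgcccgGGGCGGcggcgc
Gabbr2: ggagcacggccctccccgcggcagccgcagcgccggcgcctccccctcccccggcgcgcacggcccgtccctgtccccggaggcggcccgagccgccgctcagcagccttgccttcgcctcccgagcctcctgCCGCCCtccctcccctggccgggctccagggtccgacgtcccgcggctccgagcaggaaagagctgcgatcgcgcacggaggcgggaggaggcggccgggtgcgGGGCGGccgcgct
These windows lie at chr2:70561879-70562128 for Gad1, chr2:22622077-22622326 for Gad2 and chr6:114130991-114131240 for Slc6a11, all on the plus strand, and at chr4:46991715-46991964 on the minus strand for Gabbr2. The RefSeq starts used for Gad1, Gad2 and Gabbr2 lie inside the genes' span in the GENCODE annotation, so their windows lie wholly or partly within those genes. The Gad1 capitals are a TATA box on the opposite strand at 141 to 136 bases before the start and a GC box, also on the opposite strand, at 8 to 3 bases before it. The Slc6a11 capitals are AGGTCA at 216 to 211 and at 182 to 177 bases before the start and 3 GC boxes. The Gabbr2 capitals are 2 GC boxes, and the Gad2 window held none of the motifs. Of 32851 promoter windows of this length, 14% held AGGTCA, 0.0639% the full estrogen response element, 12.4% a TATA box and 32.7% a GC box. The remaining motifs occurred in 1.55% (cAMP response element), 6.02% (E-box) and 4.46% (AP-1) of windows. The 6 members with an entry, all but Abat, had 58% to 80.8% G and C against a median of 52.4% over all windows, and Gabbr2 exceeded 99% of windows. No member window held the full estrogen response element. These letter matches are a description of the sequence and carry no information on binding in these mice.

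Gad1, a synthesis enzyme, had the highest mean level of the 7 genes, followed by Gabbr1, Abat and Gad2. Gad1 (mm10 chromosome 2, 70553072 to 70602014, plus strand) averaged 455 ± 132 TPM over the 40 libraries and took rank 328 of the 15196 tested genes by mean level. Its group means ran from 549.8 ± 125 TPM in saline females (SD, n = 5, as for all group means) down to 325 ± 161 TPM in cocaine-treated ovariectomized mice with estradiol. Gad2 (chromosome 2, 22622205 to 22693874, plus strand) averaged 284 ± 111 TPM, and its group means took the same order as those of Gad1, from 381 ± 109 TPM to 182 ± 98.9 TPM. In that shared order, saline females were followed by cocaine females, estradiol saline, male cocaine, male saline, placebo cocaine, placebo saline and estradiol cocaine. For both enzymes, each of the 7 gaps between neighbouring group means was smaller than the smaller of the SDs beside it. An antisense gene, Gad1os, overlaps Gad1, the microRNA gene Mir3967 overlaps Gad2, and whether the quantification used strand is not given in the sources used here.

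Slc32a1, the vesicular transporter (chromosome 2, 158610767 to 158615748, plus strand), averaged 227 ± 78.0 TPM. Of the 7 genes it had the smallest ratio of highest to lowest group mean, from 263 ± 15.1 TPM in saline females to 189 ± 64.2 TPM in cocaine males, and all 7 neighbouring gaps were below the smaller SD. The 5 saline females lay close together, at 254, 288, 249.7, 261 and 260.0 TPM, whereas the 5 estradiol cocaine mice were at 79.5, 423, 81.9, 189.8 and 279 TPM. The highest and the lowest Slc32a1 value of the study therefore fell in the same group. Its annotation overlaps the antisense gene Gm14205.

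Slc6a11, the uptake carrier (chromosome 6, 114131241 to 114249952, plus strand), averaged 143 ± 68.3 TPM and was the most variable member, with a 15.6-fold span between the lowest and the highest library. Its means ranged from 200.4 ± 75.4 TPM in cocaine females to 96.5 ± 54.0 TPM in placebo saline mice, and no neighbouring gap exceeded the smaller SD. Within groups its SD was 0.81 on the log2 scale, against a median of 0.53 over all tested genes. A pseudogene, Gm8132, lies within its span. Abat, the breakdown enzyme (chromosome 16, 8513429 to 8621568, plus strand), averaged 301 ± 98.6 TPM, with means from 383 ± 67.0 TPM in saline females to 209 ± 122 TPM in estradiol cocaine mice. Of its 7 gaps only the step from estradiol saline to male cocaine exceeded the smaller SD beside it.

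The receptor subunits differed in level. Gabbr1 (chromosome 17, 37045966 to 37075067, plus strand) averaged 405 ± 111 TPM, and Gabbr2 (chromosome 4, 46662305 to 46991873, minus strand) averaged 42.7 ± 16.6 TPM. Gabbr1 means ran from 493 ± 67.5 TPM in saline females to 280.0 ± 147 TPM in estradiol cocaine mice, and of the 7 neighbouring gaps only that from estradiol saline to placebo cocaine exceeded the smaller SD. For Gabbr2 only the gap between cocaine and saline females did. Gabbr2 was highest in cocaine females, at 59.3 ± 8.86 TPM, and lowest in estradiol cocaine mice, at 27.6 ± 18.9 TPM. Among intact mice the 5 Gabbr2 values were 24.9, 65.6, 68.7, 23.3 and 51.3 TPM in saline males, 13.9, 66.0, 47.1, 61.2 and 51.0 TPM in cocaine males, 38.6, 55.5, 48.0, 57.3 and 48.3 TPM in saline females and 52.1, 65.9, 65.7, 47.4 and 65.4 TPM in cocaine females. In ovariectomized mice they were 55.7, 27.4, 43.7, 26.1 and 11.6 TPM for placebo saline, 42.8, 29.0, 31.3, 42.7 and 41.4 TPM for placebo cocaine, 42.0, 29.5, 48.5, 36.3 and 45.1 TPM for estradiol saline and 8.15, 41.5, 5.71, 41.1 and 41.7 TPM for estradiol cocaine. The values under 15 TPM belonged to the 4 low-correlation libraries, and the other 36 libraries lay at 23.3 TPM or above.

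**Figure D1:**
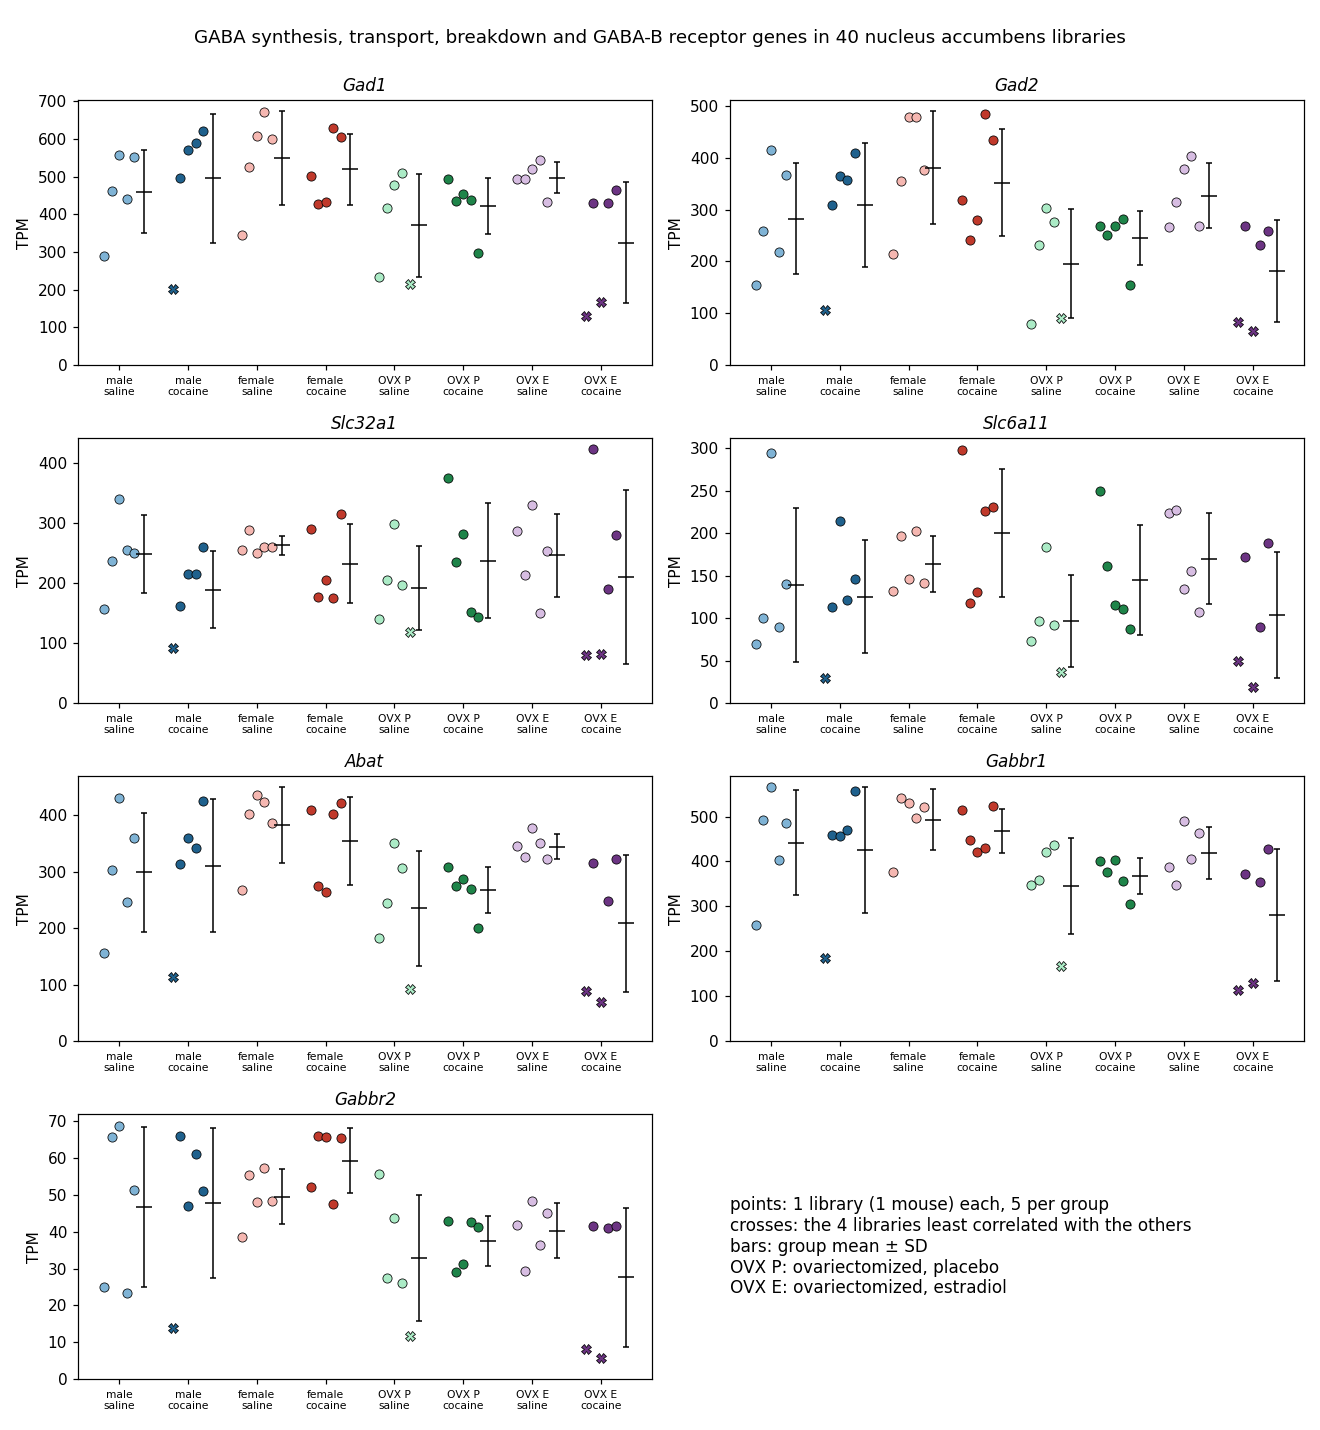
TPM of each of the 7 genes (y axes, linear, from 0) in the 40 libraries by group (x axis), 5 mice per group, with the group mean ± SD to the right of the points and the 4 low-correlation libraries as crosses. The crosses are at or near the bottom of their groups in every panel, for example Gabbr2 at 8.15 and 5.71 TPM in the estradiol cocaine group.

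The comparison of ovariectomized estradiol mice with intact females, both on cocaine, was the only one of 15 in which members were called. Of the 7 genes, 6 fell and 0 rose: Gad1, Gad2, Slc6a11, Abat, Gabbr1 and Gabbr2. This share stands against 55.5% of all 15196 tested genes called and 51.6% called lower in the same comparison, with a median difference of -0.74 over all genes and -1.001 over the 7. Because the contrast joins surgery, estradiol and any cohort behind the separate number codes, these cannot be told apart in it.

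Gad1 was at 501, 428, 434, 629 and 606 TPM in the intact cocaine females and at 131, 429, 168, 429.9 and 465 TPM in the estradiol cocaine mice. Of the latter, libraries 126 and 134 were far below the rest, and the other 3 overlapped the intact range. The difference was -0.84 ± 0.30 on the log2 scale (limma adjusted p = 0.0236). Gad2 was at 318, 242, 281, 484 and 433 TPM in the intact mice and 82.7, 268, 66.2, 232 and 259 TPM in the estradiol mice, a difference of -1.13 ± 0.39 (limma adjusted p = 0.0189). Here too 3 of the 5 estradiol mice lay within or beside the intact range. For Gabbr2 the 2 groups did not overlap, since the highest estradiol value, 41.7 TPM, was below the lowest intact value, 47.4 TPM. Its difference was the largest of the 7, at -1.51 ± 0.44 (95% interval -2.39 to -0.63; limma adjusted p = 0.0145), and the groups of 17.6% of all tested genes did not overlap in this comparison.

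Slc6a11 differed by -1.28 ± 0.48 (limma adjusted p = 0.0266), with 298, 118, 130.3, 226 and 230.4 TPM in intact mice against 49.0, 172, 19.1, 89.8 and 189 TPM. Abat differed by -1.001 ± 0.356 (limma adjusted p = 0.0222) and Gabbr1 by -0.94 ± 0.30 (limma adjusted p = 0.0156). Slc32a1 had 289, 177, 205, 175 and 315 TPM in the intact mice and ran from 79.5 to 423 TPM in the estradiol mice. Estradiol libraries 126 and 134 lay below the intact range and library 128 above it, so the 2 groups of Slc32a1 overlapped in part. Its difference of -0.40 ± 0.34 (95% interval -1.09 to 0.30) was not called (limma adjusted p = 0.311). In bulk tissue, fewer cells of a type and less RNA per cell cannot be told apart.

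The number of these calls depended on the setting. Quantile normalization left 4 of 7 members called, beside 2891 of all genes. Scaling without ribosomal protein genes, chosen after seeing the data, left 6 of 7, beside 7303 of all genes. In the estradiol cocaine group ribosomal protein genes took 17.6% ± 9.49 of the signal, against 8.13% ± 0.594 in intact cocaine females (SD, n = 5 each). With each library centred on its median gene, which sets the median difference aside, 1 of 7 members was called, against 19.8% of all genes: Gabbr2, at -0.69 ± 0.24 (limma adjusted p = 0.0439). The centred differences of the other 6 ran from -0.47 for Slc6a11 to 0.42 for Slc32a1, so Slc32a1 changed sign on this scale. With the ribosomal share as a covariate, and likewise without the 4 low-correlation libraries, 0 of 7 members and 0 of all genes were called by limma. Gabbr2 was then at -0.30 ± 0.25 and -0.50 ± 0.27, with limma adjusted p = 0.965 and limma adjusted p = 0.329. With limma's array weights, which give deviating libraries less influence, Gabbr2 was again the only member called, at -0.64 ± 0.19 (limma adjusted p = 0.0105), while Slc6a11 turned to 0.13; limma then called 4631 of the 15196 genes. Leaving out estradiol cocaine 126 or 134 alone also left 0 members called, beside 0 and 14 of all genes.

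Markers of cortical excitatory neurons, which a punch can include, summed to 62.0 to 938 TPM in intact cocaine females and 12.9 to 521 TPM in the estradiol cocaine mice, with 0 of the 10 markers at 0 throughout either group. Gabbr2 was at 65.9 and 65.7 TPM in the intact cocaine females 71 and 72, whose cortical markers summed to 938 and 644 TPM, but also at 65.4 TPM in female cocaine 80, whose sum was 75.4 TPM. Among placebo saline mice the highest Gabbr2 value, 55.7 TPM, was in library 121, with a cortical sum of 918 TPM and an oligodendrocyte sum of 18943 TPM, the highest of the 40. Over the 40 libraries, Spearman rho between Gabbr2 TPM and the marker sums was 0.42 for cortical and 0.51 for oligodendrocyte markers. Among all marker lists it was highest for endothelium, at 0.63, and lowest for microglia, at -0.56. The part of any marker list in the Gabbr2 difference was not tested.

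**Figure D2:**
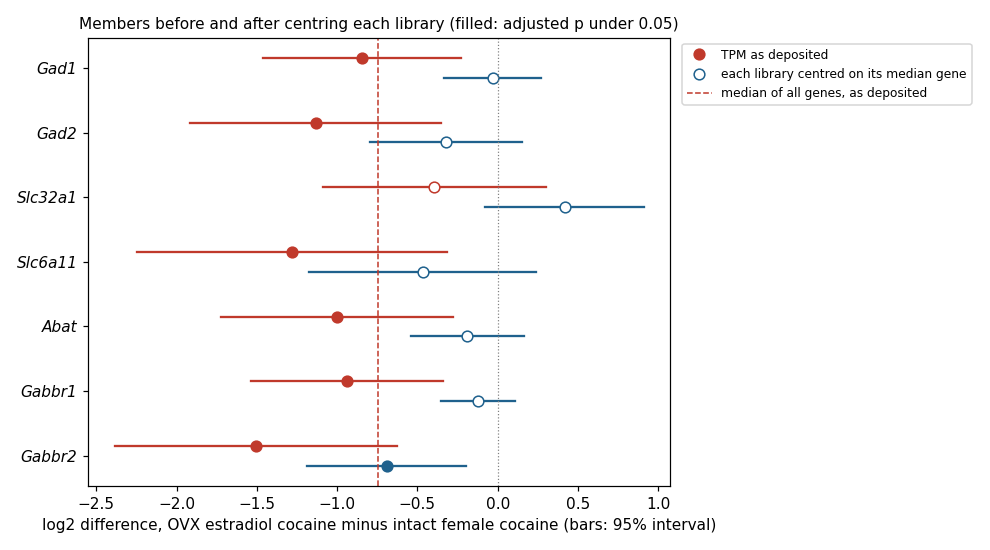
Log2 difference between ovariectomized estradiol mice and intact females on cocaine (x axis, with 95% interval) for the 7 genes, as deposited and with each library centred on its median gene; filled points have adjusted p under 0.05. As deposited 6 of 7 points are filled and lie at or below the all-gene median of -0.74, and after centring only Gabbr2 is filled, at -0.69.

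Cocaine against saline was compared within each of the 4 kinds of mice. By limma 0 of 7 members were called in each of them, as were 0% of all tested genes. At an unadjusted p under 0.05 the counts were 0 of 7 in males, females and placebo mice, where 1.02%, 0.954% and 0.823% of all genes passed. In males the largest difference was that of Slc32a1, at -0.44 ± 0.34, with saline males at 157, 238, 340.0, 256 and 251 TPM and cocaine males at 91.8, 162, 216, 214 and 259 TPM. The groups overlapped, and without the library labelled male cocaine 69 the difference was -0.50 ± 0.37 and again 0 of 7 were called. Without male cocaine 67 the Slc32a1 difference was -0.20. In intact females the 7 differences lay between -0.22 and 0.26, and in placebo mice they lay between 0.16 for Gabbr1, whose sign turned to -0.01 with centred libraries, and 0.67 ± 0.48 for Slc6a11. The intervals were wide: for Gabbr1, which had the smallest standard error of the 7, the 95% interval was -0.69 to 0.50 in males and -0.67 to 0.53 in females.

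In estradiol mice the 7 differences between cocaine and saline lay between -1.07 and -0.48, with Slc32a1 at 0.13 once libraries were centred, and 6 of 7 passed an unadjusted p under 0.05, as did 41.7% of all genes. None passed adjustment (limma adjusted p = 0.0946 for Gad2 to 0.260 for Slc32a1), and the median over all genes was -0.56. Abat was the single member whose groups did not overlap, with 346, 326, 377, 350.3 and 323 TPM on saline and 88.3, 315, 70.0, 248 and 322 TPM on cocaine; the groups of 1.27% of all genes did not overlap. Its difference was -0.99 ± 0.36, or -0.38 ± 0.17 with centred libraries. Leaving out male cocaine 67 gave 4 calls among the 7 and 2499 among all 15196 genes. Leaving out estradiol cocaine 128, 136 or 140 gave 6, 5 and 6 among the 7, and 3628, 6122 and 5906 among all genes. Without the 4 low-correlation libraries, Gabbr2 was at 0.06 and Slc32a1 at 0.24. Averaged over the 4 kinds of mice, the cocaine difference was -0.21 to -0.09 (0.02 for Slc6a11 and 0.02 for Gabbr2 with centred libraries), with 0 of 7 members and 0% of all genes called by limma, and 0 of 7 at an unadjusted p under 0.05 against 1.1% of all genes.

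**Figure D3:**
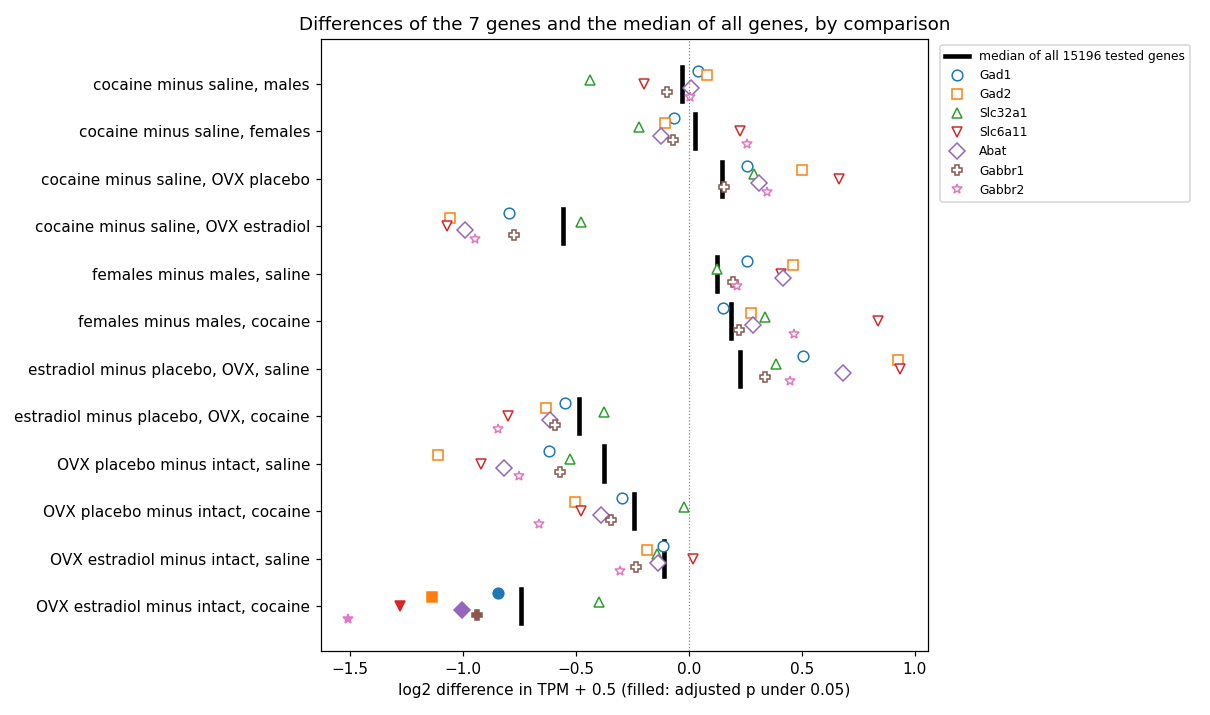
Log2 differences of the 7 genes (points) in the 12 comparisons between pairs of groups (rows), with the median of all 15196 tested genes as a black bar and filled points for an adjusted p under 0.05. The points follow the bar from row to row, and filled points occur in the bottom row only, where the bar is at -0.74.

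Estradiol was compared with placebo in ovariectomized mice. On saline, all 7 genes were higher with estradiol, by 0.34 ± 0.30 for Gabbr1 to 0.94 ± 0.48 for Slc6a11, and the median of all genes was 0.23. Gad2 was at 267, 316, 379, 404 and 269 TPM with estradiol and 79.1, 231, 303, 275 and 91.1 TPM with placebo. Placebo libraries 121 and 137 were far below every other value, and the remaining placebo mice overlapped the estradiol range. The difference of 0.93 ± 0.39 had an unadjusted p of 0.0211, the only one of the 7 under 0.05 where 2.48% of all genes passed, and an adjusted p of 0.737 by limma. By limma 0 of 7 members and 0% of genes were called. With centred libraries Gad2 was at 0.65 ± 0.23 and Abat at 0.41 ± 0.17, with limma adjusted p = 0.677 for both; these were the 2 of 7 with an unadjusted p under 0.05, against 6.65% of all genes.

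On cocaine the estradiol differences ran from -0.37 for Slc32a1 to -0.84 for Gabbr2, beside a median of -0.49 over all genes. With centred libraries Slc32a1 was at 0.13, and without the 4 low-correlation libraries all 7 differences were above 0, from 0.07 for Gabbr1 to 0.34 for Slc32a1. By limma 0 of 7 were called and 0 had an unadjusted p under 0.05, against 0% and 15.7% of all genes. The difference between the estradiol effects on cocaine and on saline was itself tested as an interaction. It ranged from -0.76 for Slc32a1 to -1.74 for Slc6a11; 6 of 7 genes had an unadjusted p under 0.05, as had 31.3% of all genes, and limma called 0 of 7 and 0% of genes (adjusted p = 0.156 to 0.227). With centred libraries Gad2 was at -0.78 ± 0.33 and Abat at -0.52 ± 0.25, each with limma adjusted p = 0.278, and Slc32a1 was at 0.02. The signs of these interactions also depended on the libraries. That of Slc6a11, the largest, changed sign with array weights, and that of Gabbr2 without the 4 low-correlation libraries.

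Ovariectomized placebo mice were compared with intact females. On saline all 7 differences were below 0, also with centred libraries, and ran from -0.53 ± 0.34 for Slc32a1 to -1.11 ± 0.39 for Gad2, with an all-gene median of -0.37. The intact saline females had 215, 355, 479, 478 and 376 TPM of Gad2, and library 64, at 215 TPM, was the only one inside the placebo range. Gad1, Gad2 and Abat had unadjusted p under 0.05, 3 of 7 against 19.3% of all genes, and limma called 0 of 7 and 0% of genes (adjusted p = 0.247 to 0.322). Without placebo saline 137 the Abat difference went from -0.82 ± 0.36 to -0.52. Ribosomal protein genes took 13.2% ± 3.88 of the signal in placebo saline mice and 9.07% ± 2.70 in intact saline females (SD, n = 5 each). The 6 endothelial markers summed to 75.6 to 189 TPM, with a median of 80.4 TPM, in the former and to 140.4 to 255 TPM, with a median of 239 TPM, in the latter, with 0 of the 6 at 0 throughout either group. The part of either in these differences was not tested. On cocaine the differences ran from -0.02 ± 0.34 for Slc32a1 to -0.66 ± 0.44 for Gabbr2, and centring turned Gad1 to 0.01 and Slc32a1 to 0.28, with 0 of 7 called and 0 of 7 under an unadjusted 0.05 by limma, against 0% and 5.63% of all genes. The groups did not overlap for Gabbr1 and Gabbr2, as for 7.27% of all genes. Gabbr1 was at 401, 375, 403, 356 and 305 TPM in placebo mice and 514, 448, 420.4, 430.2 and 524 TPM in intact mice. For estradiol mice on saline against intact females on saline, the differences lay between -0.30 ± 0.44 for Gabbr2 (95% interval -1.18 to 0.58) and 0.02 ± 0.48 for Slc6a11 (95% interval -0.95 to 0.98), and centring turned those of Gad1, Slc32a1 and Abat to 0.05, 0.02 and 0.03, with 0 of 7 called and 0 of 7 under an unadjusted 0.05 by limma, against 0% and 4.09% of all genes. The comparisons above share the same intact or placebo mice, so they are not independent of each other.

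Intact females and males were compared under each treatment. On saline the differences, females minus males, ran from 0.12 ± 0.34 for Slc32a1, which was at -0.01 with centred libraries, to 0.46 ± 0.39 for Gad2, with an all-gene median of 0.13. By limma 0 of 7 were called and 0 had an unadjusted p under 0.05, against 0.0329% and 1.41% of all genes. On cocaine they ran from 0.15 ± 0.30 for Gad1, at -0.06 with centred libraries, to that of Slc6a11 at 0.84 ± 0.48 (limma adjusted p = 0.928), with 298, 118, 130.3, 226 and 230.4 TPM in females and 30.0, 113, 215, 122 and 146 TPM in males. The highest male value there, 215 TPM, was in the library labelled male cocaine 69. Without that library the Slc6a11 difference was 1.09 ± 0.50 (limma adjusted p = 0.842), with an unadjusted p under 0.05, and 0 of 7 were called. The share of all genes under an unadjusted 0.05 in that fit is not reported here. Without male cocaine 67 instead, the Slc6a11 difference was 0.39. With both libraries, 0 of 7 were called and 0 had an unadjusted p under 0.05 by limma, against 0.0329% and 1.36% of all genes. The sex by cocaine interaction lay between -0.19 and 0.43, with 0 of 7 called by limma and 0 of 7 under an unadjusted 0.05, against 0% and 0.665% of all genes. A test for any difference among the 8 groups called 0 of 7 members and 0.224% of genes by limma. Gad2, Gabbr1, Gabbr2 and Abat had an unadjusted p under 0.05 in it, 4 of 7 against 23.9% of all genes, and limma adjusted p = 0.167 to 0.209.

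The summed level of the 7 genes ran from 541 TPM in estradiol cocaine 134 to 2672 TPM in male saline 63. The 4 low-correlation libraries had 541 to 742 TPM, below the other 36, of which the lowest were male saline 61 at 1109 TPM, with 18.0% ribosomal signal, and ovariectomized placebo saline 121 at 1113 TPM, with 11.2%. In centred values, Gabbr2 had the strongest relation to the ribosomal share over the 40 libraries (Pearson r = -0.68, Spearman rho = -0.59; permutation test, adjusted p = 9.33e-05 and p = 4.00e-04 over 28 relations). Pearson r was -0.58 without the 2 libraries farthest from the median Gabbr2 level, -0.55 among the 20 intact and -0.70 among the 20 ovariectomized mice. For Slc32a1 the corresponding r was 0.14 and rho 0.40 (permutation test, adjusted p = 0.411 and p = 0.0201). Without the 2 libraries farthest from the median Slc32a1 level, r was 0.17.

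**Figure D4:**
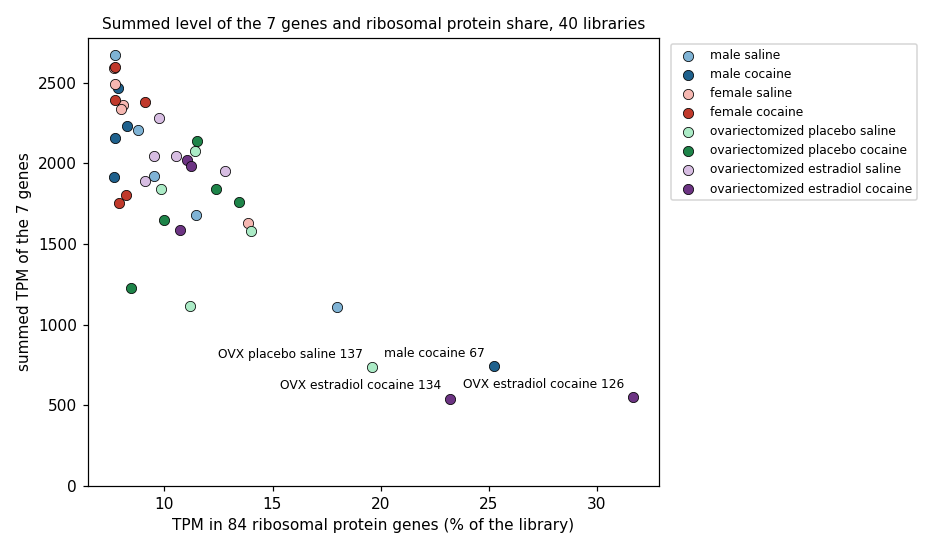
Summed TPM of the 7 genes (y axis, linear) against the share of TPM in 84 ribosomal protein genes (x axis, percent) in the 40 libraries, coloured by group. The 4 named low-correlation libraries sit at 19.6% to 31.7% ribosomal signal and 541 to 742 TPM, apart from the other 36.

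Ratios of 2 genes within a library do not depend on the library's scale. The Gad1 to Gad2 ratio was 1.70 ± 0.332 (SD, n = 40), with group means from 1.47 ± 0.141 in saline females to 2.12 ± 0.561 in placebo saline mice (n = 5 each). The placebo saline mean rested on libraries 121 and 137, at 2.97 and 2.37, and the other 3 were between 1.58 and 1.85. The Gabbr1 to Gabbr2 ratio was 10.5 ± 3.26, lowest in cocaine females at 8.03 ± 1.47 and highest in estradiol cocaine mice at 12.9 ± 5.90, where library 134 reached 22.8. Gabbr1 had the higher deposited value of the 2 in each of the 40 libraries, with a lowest ratio of 6.22. Gad1 to Slc32a1 was 2.61 ± 0.333 in cocaine males and 1.87 ± 0.221 in saline males, with values of 2.19 to 3.06 against 1.64 to 2.21 and 2.65 in the library labelled male cocaine 69. Abat to Gad1 was the steadiest of the 6 ratios computed, at 0.652 ± 0.0852 over all libraries. No test was run on the ratios.

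**Figure D5:**
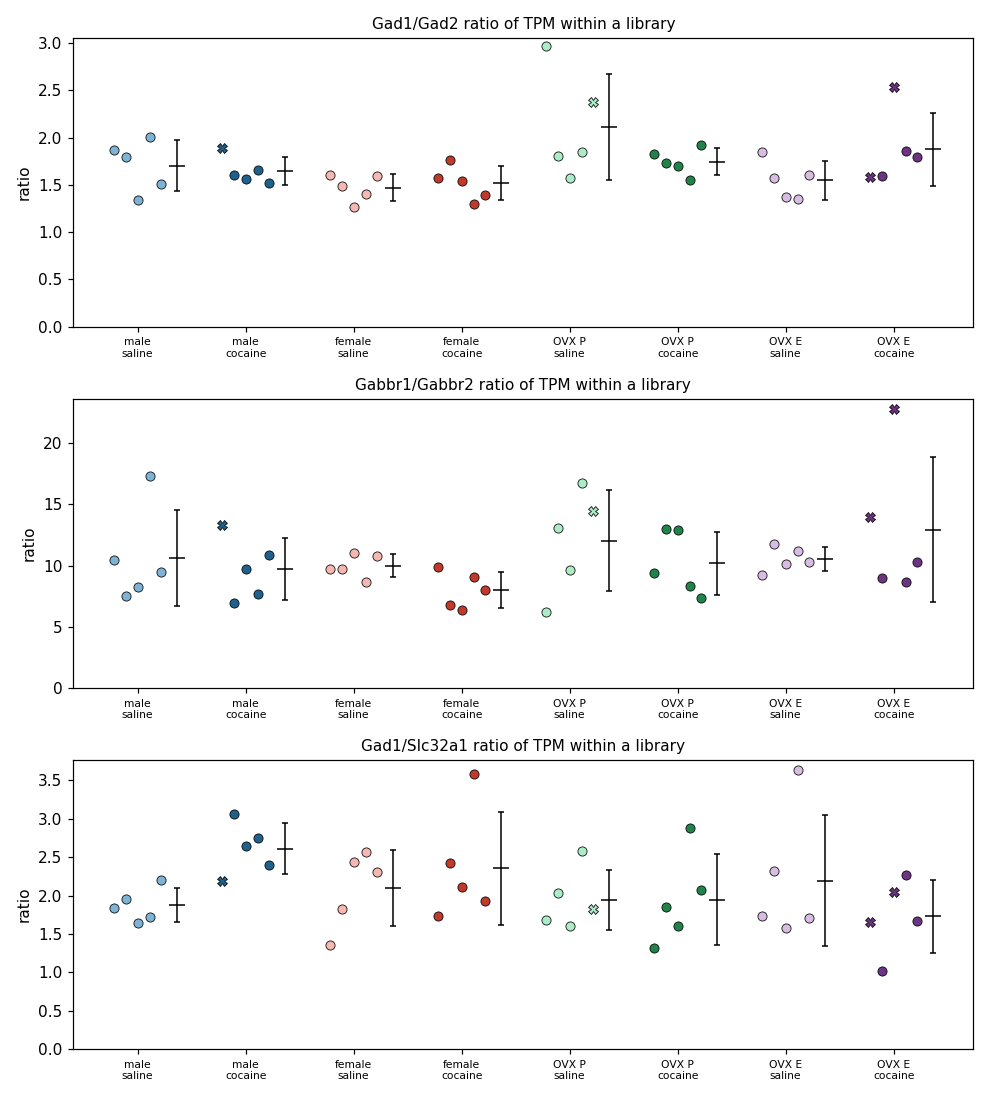
Ratio of TPM within a library (y axes, linear, from 0) for Gad1 to Gad2, Gabbr1 to Gabbr2 and Gad1 to Slc32a1, by group (x axis), 5 mice per group with mean ± SD to the right; crosses are the 4 low-correlation libraries. The Gad1 to Gad2 group means lie between 1.47 and 2.12, and the highest Gabbr1 to Gabbr2 value, 22.8, is a cross in the estradiol cocaine group.

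The levels of the members relative to their libraries varied together in part. Of 21 pairs, 15 had an adjusted p under 0.05 for Pearson's r over the 40 libraries in a permutation test of centred values, and 11 without the 4 low-correlation libraries. For each pair, the 2 farthest libraries are those farthest from the median of the gene that comes first in the opening list of members. Gad1 and Gad2 had r = 0.86 and rho = 0.79 (permutation test, adjusted p = 5.60e-05 and p = 4.67e-05, from the smallest p that 100000 permutations can give), 0.72 without the 2 farthest libraries, 0.84 in the intact mice and 0.89 in the ovariectomized mice. Gad2 and Abat had r = 0.82, rho = 0.85 and 0.83 without the 2 farthest libraries, and Slc6a11 and Abat had r = 0.80, rho = 0.78 and 0.74, with the same adjusted p values. Slc32a1, which carries the product of both enzymes, had r = 0.32 and rho = 0.23 with Gad1 and r = 0.19 and rho = 0.14 with Gad2 (permutation test of r, adjusted p = 0.0584 and p = 0.275), and r = 0.18 and r = 0.04 without the 2 farthest libraries. Gabbr2 had r = 0.36 with its partner Gabbr1 (rho = 0.26, permutation test, adjusted p = 0.0392 and p = 0.154), and r was 0.20 without the 2 farthest libraries. Without the 4 low-correlation libraries this r was -0.00367, so its size depended on a few libraries. With Gad1, Gabbr2 had r = -0.23 and rho = -0.26 (permutation test, adjusted p = 0.184 and p = 0.162), and r = -0.06 without the 2 farthest libraries. Without the 4 low-correlation libraries, Gad1 and Gabbr2 had r = -0.49 (permutation test, adjusted p = 0.00725), and r = -0.35 as deviations from the group means (permutation test, adjusted p = 0.0475). All of these values share each library's mix of cells and its total.

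The genes whose centred level was most like that of each member over the 40 libraries, among 15189 others, are given as a description. For Gad1 they were Npy2r, a neuropeptide Y receptor (r = 0.85), Slc5a7, the choline transporter of cholinergic neurons (r = 0.84), and Gpr101 (r = 0.82). Gad2 was closest to Usp29, Fam120b and Cxxc4 (each r = 0.90). Slc32a1 was closest to Slc22a17 (r = 0.85), Ache, acetylcholinesterase (r = 0.81), and Cxx1a (r = 0.81). Slc6a11 was closest to Lrig1 (r = 0.92), the transcription factor gene Lhx6 (r = 0.89) and Itpkb (r = 0.89). Abat was closest to Rcan3 (r = 0.88), Aldh5a1, which encodes the next enzyme of GABA breakdown (r = 0.88), and Gpld1 (r = 0.87). Gabbr1 was closest to Stim1 (r = 0.82), Doc2b (r = 0.82) and Rhbdl3 (r = 0.81), and Gabbr2 to Apba1 (r = 0.91), Rab11fip4 (r = 0.88) and 6430548M08Rik (r = 0.88).

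The wider GABA system was described with 5 further lists. In the estradiol cocaine against intact cocaine comparison, where 51.6% of all genes were called lower, 0 genes of these lists rose. Of 13 other genes for GABA supply, uptake and breakdown, 10 fell, among them the glutamine transporter gene Slc38a1 (-1.38 ± 0.37), Aldh5a1 (-1.21 ± 0.37), Gls2, Slc38a3, Slc38a5, Glul, Slc38a2 and Maob. Of 14 GABA-B partners and effectors, 10 fell: Pianp (-1.17 ± 0.36) and Kctd12b (-1.22 ± 0.39), which bind the receptor, the potassium channel genes Kcnj9, Kcnj6 and Kcnj3, the G protein genes Gnao1, Gnai3 and Gnai1, and Ajap1 and Kctd12. Of 15 tested GABA-A receptor subunits, 9 fell, among them Gabrb2 (-1.27 ± 0.35), Gabra2 (-1.57 ± 0.44), Gabra3, Gabrg3, Gabrb1 and Gabra5. Outside the naming rule, and chosen after their values were seen, the extrasynaptic subunit Gabrd was at 0.07 ± 0.24 and the striatal Gabra4 at -0.44 ± 0.31, neither called, and 4 more listed subunits were too low to test. Of 9 inhibitory synapse scaffolds and chloride transporters, 8 fell, among them Shisa7 (-1.61 ± 0.41), Slitrk3 (-1.34 ± 0.37), Lhfpl4, Slc12a5, Nlgn2, Slc12a2 and Gphn. Of 10 transcription factors of GABA neurons, 2 fell: Lhx6 (-1.22 ± 0.41) and Dlx1 (-0.87 ± 0.38). The list medians were -0.95, -0.97, -1.03, -1.18 and -0.27 in this order, beside -0.74 over all genes, and 0 genes of any list were called without the 4 low-correlation libraries, as for all genes.

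In the remaining comparisons in which a member had an unadjusted p under 0.05, 0 genes of the 5 lists were called by limma. For cocaine in estradiol mice the genes with the smallest p in each list included Glul and Aldh5a1 (-1.02 ± 0.33 and -1.03 ± 0.37), Kctd12b and Gnai3, Gabrb2 and Gabra3 (-1.20 ± 0.35 and -1.19 ± 0.38), Gphn, and Lhx6 and Dlx6. For the interaction of estradiol and cocaine they included Aldh5a1, Kctd12b and Gnai1, Gabra3 (-1.70 ± 0.54), Slitrk3, and Lhx6 and Gsx2. Those for placebo saline against intact saline included Aldh5a1, Kctd12b and Kcnj5, Gabrq and Gabra2 (-1.84 ± 0.69 and -1.16 ± 0.44), Shisa7 (-1.37 ± 0.41) and Slc12a5, and Lhx6 and Dlx5. Those for estradiol against placebo on saline included Aldh5a1 (0.69 ± 0.37), Kctd12b (0.76 ± 0.39) and Kcnj5, Gphn and Slitrk3, and Lhx6 and Dlx5.

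Marker lists of the cells a punch can hold gave the following values in the estradiol cocaine against intact cocaine comparison. Of all 15196 tested genes, 7840 were called lower and 594 higher in it, with a median of -0.74. Without the 4 low-correlation libraries, 0 of all genes were called. Of 14 spiny projection neuron markers 2 fell, with a median of -0.47 and sums of 2518 to 6327 TPM against 4030 to 5624 TPM. Of 10 interneuron markers 3 fell (median -0.70; 1030 to 1590 TPM against 1027 to 1232 TPM), and of 11 astrocyte markers 4 fell (median -0.70; 821 to 2944 TPM against 2519 to 3155 TPM). All 6 endothelial markers fell, with a median of -1.72. Of 10 cortical markers 1 fell (median -1.16), and of 8 tested septal, hypothalamic and thalamic markers 3 fell (median -0.92). Choroid plexus and ependyma markers had 2 of 8 that rose (median 0.70), microglial markers 2 that rose and 2 that fell of 8 (median -0.19), and oligodendrocyte markers 1 that rose and 1 that fell of 9 (median -0.44). The part of these cell types in the members' differences was not tested.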

How the data were processed

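The members and all gene lists were chosen with earlier results of these data known. RNA from nucleus accumbens punches was profiled with an amplicon kit, per the labels' protocols. The deposited table is named for FPKM, but each of its 40 columns sums to 1000000, so the authors' values were taken as TPM; the read depth behind them is unknown. The submitters' processing notes name build mm10, limma, DESeq2, TopHat2 2.0.9, Bowtie2 2.1.0.0, and Cuffdiff and Cufflinks, both 2.2.0; which of them made the table is not given in the sources used here. Of 23349 entries, 27 had become dates and were dropped, and 0 columns were left over. The 15196 genes that reached 1 TPM in 5 or more libraries were kept, and log2(TPM + 0.5) was fitted with limma 3.58.1 in R 4.3.3 on all 8 groups together (32 residual degrees of freedom, trended and robust empirical Bayes), with Benjamini-Hochberg adjustment over all genes in each comparison. A fold change on this scale understates changes of low genes. Centred values subtract each library's median over the tested genes. The 4 low-correlation libraries are those with the lowest median Pearson correlation to the others in log2(TPM + 0.5), and they were found in these data. The methods were tested on simulated data. For limma these drew each gene independently, so they held no shift shared by a whole library. The text names the 7 members, list genes called, those among the 2 with the smallest p per list elsewhere, 2 uncalled subunits, and the 3 genes most correlated with each member; a few list genes are counted but not reported here by name. Positions are from GENCODE M21 on mm10, and promoters are from RefSeq on GRCm38.p6. Mice are the replicates. The alternatives are given in the closing section.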

Additional observations from a re-analysis of the deposited data

Results flagged for a closer look

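In 56 sets of 5 mice (7 genes in 8 groups), the lowest mouse stood far from the others in 10 sets, by a gap that took more than 0.71 of the group's range on the log2 scale, where chance flags about 1 set in 20. These sets are not independent, since all 10 come from 4 libraries.

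Male cocaine 67, with 25.2% ribosomal protein signal, was lowest in 5 of them. Its gap was 0.799 of the range for Gad1 (201 TPM against 496 to 622 TPM), 0.789 for Gad2 (106 against 308 to 409.8 TPM), 0.768 for Abat (114 against 313 to 426 TPM), 0.820 for Gabbr1 (185 against 456 to 556 TPM) and 0.781 for Gabbr2 (13.9 against 47.1 to 66.0 TPM). Placebo saline 137, with 19.6%, was lowest for Gabbr1 at 0.759 (168 against 346 to 436 TPM).

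The remaining 4 sets came from libraries outside the 4 least correlated. Placebo cocaine 139, whose ribosomal share of 8.46% was below the median of all libraries, was lowest for Gad1 at 0.756 (297 against 436 to 493 TPM) and for Gad2 at 0.811 (154 against 252 to 282 TPM). Female saline 64, with 13.9%, was lowest for Abat at 0.757 (268 against 387 to 435 TPM) and for Gabbr1 at 0.769 (376 against 497 to 540.4 TPM). The part of the ribosomal share in these values was not tested.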

How the results depend on the processing

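The 6 calls among the 7 genes for estradiol against intact mice on cocaine, beside 8434 among all 15196 genes, became 1 with array weights (beside 4631), 1 with library-median centring (3014), 4 with quantile normalization (2891), 0 with the ribosomal share as covariate (0), 0 in a fit of the 2 groups only (2), 0 without the 4 low-correlation libraries (0), and 0 to 6 when 1 mouse was left out, with 0 without estradiol cocaine 126 or 134. All 6 were called with pseudocounts of 0.1 and 1, with both other filters, with plain empirical Bayes and without the library labelled male cocaine 69. For Gabbr2 the adjusted p ranged from 0.0105 to 0.965 over the named alternatives. Cocaine in estradiol mice went from 0 to between 0 and 6 calls with 1 mouse left out, and the test for any difference to between 0 and 4, the highest without male cocaine 67, beside 3911 of all genes. Array weights gave 5 calls for that test (beside 9136 of all genes), 5 for placebo against intact on saline (6802) and 1 on cocaine (6431), where a fit of the 2 groups only also gave 1 (1520). For estradiol against intact mice on cocaine, array weights turned Slc6a11 to 0.13. In the interaction of estradiol and cocaine, array weights changed the sign of Slc6a11, and removal of the 4 low-correlation libraries changed that of Gabbr2. In alternatives chosen after seeing the data, scaling without ribosomal protein genes left 6 calls (beside 7303), and centring together with removal of the 4 libraries left 0 (0), with Gad1 at 0.0287 and Abat at 0.0015 in that comparison. Of correlations, Gad1 with Gabbr2 turned to 0.78 and Slc32a1 with Gabbr2 to 0.67 without centring, Slc32a1 with the ribosomal share to -0.67 without centring, and Gabbr1 with Gabbr2 to -0.00367 without the 4 libraries. TPM gives no read depth, so no counting error could be set beside the values. No paired analysis was possible because each animal number belongs to a single mouse.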
